A study of Rattus norvegicus with 2 samples.

Results

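The genes described here are 43 neuropeptide precursors, secretory granule proteins and peptide processing enzymes, taken as a list of rat gene symbols and found on the array through the RefSeq accession of each probe. Of these, 42 had a matched probe, among 15159 genes with one in all, and Oxt, the oxytocin precursor, was not analysed here. The list holds 33 peptide precursors and 10 genes of the granule itself, 6 granule proteins and 4 processing enzymes. Total RNA was hybridised to one-colour Agilent rat arrays, 1 array per group. One library came from an aneurysm lesion of a rat intracranial artery, collected 3 weeks after induction, and the other from the walls of intracranial arteries of untreated rats. The labels state no strain, sex, age, means of induction or number of animals, and whether tissue was pooled is likewise not given. The question is which of these genes differ in level between the lesion and untreated artery. With 1 array in each group there was no replicate check, no test across samples and no p-value, and every difference describes these 2 libraries.

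Neuropeptides are made as long precursors that enter the regulated secretory pathway. In the immature granule the prohormone convertases cut the precursor at pairs of basic residues, carboxypeptidase E trims the basic residues left behind, and PAM amidates the end of many peptides. Granins such as chromogranins and secretogranins condense in the granule core and are made by neurons and endocrine cells in general, whereas releasing hormones and the vasopressin precursor are made by small groups of hypothalamic neurons. Around cerebral arteries, peptides such as NPY, VIP and CGRP are known from the nerve fibres of the adventitia, where they constrict or dilate the vessel.

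Levels are the processed intensities of the scanner software, averaged on the log scale over the repeat spots of a probe. They were compared for 1 probe between the arrays, never between probes, apart from sums over a list. For differences, each array was scaled to its own 75th percentile (801 in the aneurysm and 621 in the control library), so that equal intensities on both arrays give a log2 difference of -0.37. Summed intensities are unscaled and carry this offset between the arrays, and the brightest probes weigh most in them. A value after ± is the spot error, the standard error of the difference from the spread of repeat spots, pooled within an array over probes of similar signal, and it holds no variation between animals. Signal was well above background, by the scanner software's flag, at 76.4% of gene spots in the aneurysm library and 74.7% in the control library, and 0 spots were saturated. Markers of arterial wall were present in both libraries, where 8 of 8 smooth muscle genes and 7 of 7 endothelial genes with a probe carried that flag on each array, with medians of 0.17 and 0.19. Markers of other tissues were present as well. All 10 hepatocyte genes with a value were at least 2-fold lower in the aneurysm library, with a median of -4.84. Their summed intensity was 519 in the aneurysm library and 14966 in the control library. Of 10 oligodendrocyte genes, 6 were at least 2-fold lower as well (median -1.10). The share over all genes was 3.91%. Apoh, Fga and Cyp2e1 passed the filter on dim probes through the control library alone, so the filter bears on the hepatocyte count. The hepatocyte genes Tat and Cps1 passed on neither array and had no value.

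Of the 42 genes with a probe, 36 were well above background on at least 1 array (85.7%, against 79.0% of all matched genes). In the aneurysm library 6 of these 36 were at least 2-fold lower, all of them peptide precursors, namely Avp, Grp, Trh, Tac3, Pmch and Npy. The share of genes called at least 2-fold lower was 3.91% over all 11902 genes with a difference or bound. None of the 36 was at least 2-fold higher, against 0.882% of all genes. At 1.5-fold, 12 were lower (8.43% of all genes) and 0 higher (4.25% of all genes), and at 4-fold 2 were lower (1.5% of all genes) and 0 higher (0.0168% of all genes). The 26 precursors with a value had a median difference of -0.35 and the 10 granule and processing genes a median of -0.17, beside 0.001 over all genes. Below 0 lay 20 of the 26 precursors and 6 of the 10 granule and processing genes, against 5933 of all 11902 genes. Equal intensities on both arrays give -0.37, close to the precursor median, so a value below 0 need not mean a lower intensity. With scaling on spike-in controls, which raised the median of all genes to 0.30, the medians were -0.050 for the precursors and 0.13 for the granule and processing genes, so that the sign of the second one turned. This scaling shifts all genes of an array alike. The medians relative to that of all genes, -0.35 and -0.17, therefore stayed nearly unchanged by construction. Because the tissue was measured in bulk, fewer cells of a type and less RNA per cell cannot be told apart.

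**Figure D1:**
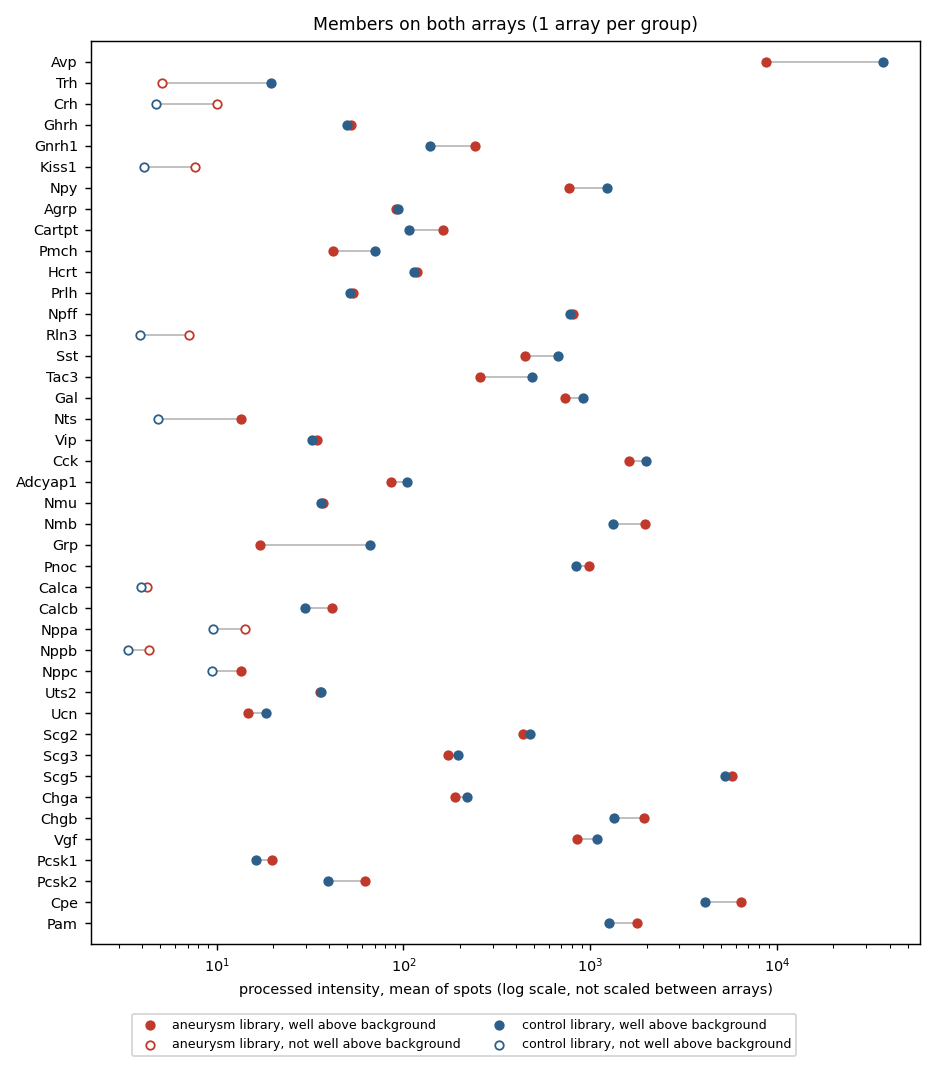
Processed intensity (log scale, unscaled) of the 42 genes with a probe, in the aneurysm library (red) and the control library (blue), 1 array each; open circles mark values not well above background. Avp stands at 8724 in the aneurysm library and 36682 in the control library, and Scg5 at 5702 in the aneurysm library and 5284 in the control library; only the points of 1 gene can be compared, since each has its own probe.

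Avp encodes the precursor of vasopressin, the antidiuretic hormone and vasoconstrictor, with its carrier protein neurophysin. Its 9 spots read from 8243 to 9106 (median 8734) in the aneurysm library, against 35875.5 to 37586 (median 36584) over 9 spots in the control library. The spots did not overlap between the arrays, and Avp was 5.43-fold lower in the aneurysm library (log2 difference -2.44 ± 0.02). It was at least 2-fold lower under the scaling used and under 10 alternatives, from -2.49 to -2.14. All 9 of its spots in the aneurysm library were well above background.

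Among the hypothalamic releasing hormones the values went apart. Trh, the precursor of thyrotropin-releasing hormone, read 5.10 in the aneurysm library, where 0 of 2 spots were well above background, against 19.6 in the control library, where 2 of 2 were. Since only the control value was measured above background, the difference is a bound, which comes to 3.69-fold lower in the aneurysm library (log2 bound -1.88, spot error 0.71). It is taken against the lowest level well above background on the aneurysm array (scaled log2 -6.86). Probes not well above background can read higher than that, as Nppa did at -5.82, so the bound is no strict limit. Trh is a dim gene, and with normexp background correction its bound was -0.64. Ghrh, which encodes growth hormone-releasing hormone, had nearly equal intensities, 52.2 in the aneurysm library and 49.7 in the control library (-0.30 ± 0.27, and 0.01 with spike-in scaling). Gnrh1, the gonadotropin-releasing hormone precursor, went the other way. Its spots read 197 to 266 (median 246, 10 spots) in the aneurysm library and 124 to 148 (median 140, 9 spots) in the control library, with no overlap, and the difference was 0.43 ± 0.06, under 2-fold. Crh, which encodes corticotropin-releasing hormone, and Kiss1, which encodes the kisspeptins that act on GnRH neurons, stayed near background on both arrays, at 10.04 and 7.68 in the aneurysm library and 4.75 and 4.09 in the control library.

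The peptides of feeding and arousal circuits held 2 genes at the 2-fold line and 5 under it. Npy, the precursor of neuropeptide Y, which is both an appetite signal of the arcuate nucleus and a cotransmitter of sympathetic vasoconstrictor nerves, read 708 to 830 over 10 spots (median 774) in the aneurysm library, against 1059 to 1348 over 10 spots (median 1231) in the control library. The spots did not overlap and the difference was -1.03 ± 0.03, with -1.05 ± 0.10 at a second Npy probe. It was -0.96 with normexp and -0.73 with spike-in scaling, both under 2-fold. Pmch, which encodes melanin-concentrating hormone of the lateral hypothalamus, read 31.2 to 51.3 (median 42.9, 10 spots) in the aneurysm library, against 60.0 to 78.5 (median 70.5, 8 spots) in the control library. Its spots did not overlap either, and the difference of -1.11 ± 0.10 became -0.68 under normexp, -0.97 after quantile normalization and -0.81 if spike-ins set the scale.

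Hcrt, the orexin precursor of the same hypothalamic area as Pmch, was also lower once scaled, but by less (-0.32 ± 0.07). Its spots read 100.2 to 132 (median 119) in the aneurysm library and 95.9 to 129 (median 118) in the control library, 9 spots each, and these unscaled intensities overlapped almost wholly. The unscaled ratio of aneurysm to control intensity was 1.03 for Hcrt and 0.60 for Pmch. Agrp, the melanocortin antagonist that arcuate neurons make together with NPY, was likewise near equal in intensity, at 90.7 in the aneurysm library and 93.1 in the control library (-0.40 ± 0.16). Cartpt, the precursor of the satiety peptide CART, was higher on the scaled values, at 162 in the aneurysm library and 107 in the control library (0.23 ± 0.06), with spots that overlapped once scaled. Prlh, which encodes prolactin-releasing peptide, read 53.8 in the aneurysm library and 51.9 in the control library (-0.31 ± 0.20). Npff, the precursor of neuropeptide FF, a modulator of opioid action, read 811 in the aneurysm library and 781 in the control library (-0.31 ± 0.07). Rln3, the relaxin-3 gene of brainstem neurons, stayed near background on both arrays (7.11 in the aneurysm library and 3.91 in the control library). Hcrt, Prlh and Npff had near equal unscaled intensities on both arrays, and with spike-in scaling Hcrt stood at -0.019.

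**Figure D2:**
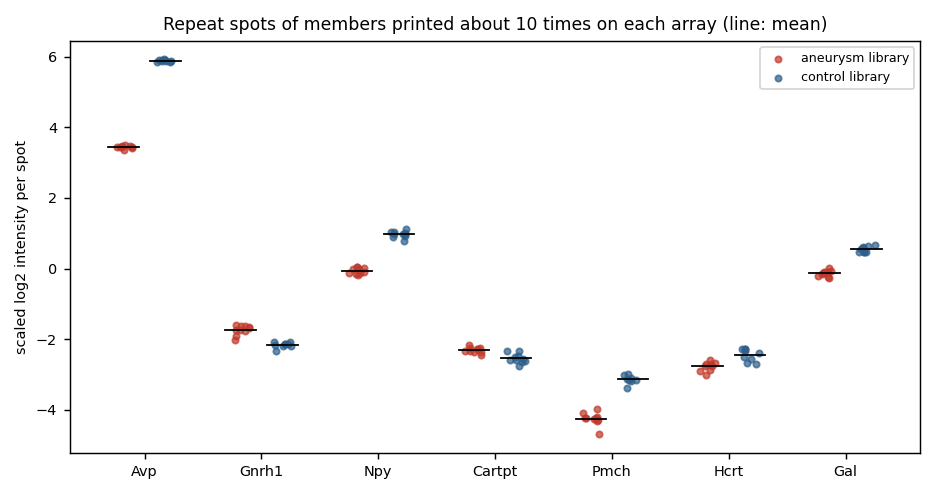
Scaled log2 intensity of single repeat spots for the 7 genes with about 10 spots per array that were well above background, aneurysm library left (red) and control library right (blue), with the mean as a line. Spots of Avp, Npy, Pmch, Gal and Gnrh1 do not overlap between the arrays, while those of Cartpt and Hcrt do; spots of 1 array are technical repeats of 1 library.

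The neuropeptides made widely in brain and peripheral nerve ranged from -2.32 to 0.53. Grp, which encodes gastrin-releasing peptide, read 17.0 in the aneurysm library, against 66.1 in the control library, a log2 difference of -2.32 ± 0.37. It is dim in the aneurysm library, and with normexp the difference was -0.93, under 2-fold. Tac3, the neurokinin B precursor, read 254 and 258 at its 2 spots in the aneurysm library, against 468 and 507 in the control library. Its difference was -1.30 ± 0.08, or 2.46-fold lower, and -0.99 with spike-in scaling. Sst, the precursor of somatostatin, an inhibitor of hormone and transmitter release, lay just under the line, at 444 in the aneurysm library and 671 in the control library (-0.96 ± 0.07).

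Gal, the galanin precursor, had 10 spots on each array, from 666 to 807 (median 741) in the aneurysm library and from 864 to 978 (median 915) in the control library. These did not overlap, and the difference was -0.69 ± 0.03, with -0.84 ± 0.08 at its other probe. Cck, which encodes cholecystokinin, read 1610 in the aneurysm library and 1998 in the control library (-0.68 ± 0.06). Adcyap1, the precursor of the vasodilator and trophic peptide PACAP, read 85.8 in the aneurysm library and 104 in the control library (-0.65 ± 0.16). Each of these was lower in intensity as well as after scaling, by less than 2-fold.

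The remaining widespread peptides lay between -0.32 and 0.19, apart from Nts, for which only a bound was had. Vip, whose product dilates cerebral arteries, read 34.7 in the aneurysm library and 32.2 in the control library, a difference of -0.26 that is within its spot error of 0.39. Nmu, which encodes the smooth muscle stimulant neuromedin U, was similar (37.1 in the aneurysm library, 36.0 in the control library, -0.32 ± 0.39). Pnoc, the nociceptin precursor, read 987 in the aneurysm library and 843 in the control library (-0.14 ± 0.06). Nmb, the bombesin-like neuromedin B and a relative of Grp, was higher at 1954 in the aneurysm library and 1330 in the control library (0.19 ± 0.06), on the other side of 0 from Grp. Nts, the neurotensin precursor, was well above background at 1 of 2 spots in the aneurysm library (13.6) and at 0 of 2 in the control library (4.83). This gives a bound of 1.44-fold higher (log2 0.53), which is within its spot error of 0.56 and is no strict limit.

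The 7 precursors grouped here as cardiovascular or sensory peptides were dim in both libraries. Calca, which encodes calcitonin and alpha-CGRP, the main vasodilator peptide of trigeminal perivascular fibres, was not well above background at either of its 2 probes (the brighter at 4.22 in the aneurysm library and 3.95 in the control library). Calcb, the beta-CGRP gene, was above background on both arrays at 41.7 in the aneurysm library and 29.8 in the control library (0.12 ± 0.38, and -0.11 with normexp). Uts2, the precursor of the vasoconstrictor urotensin II, read 35.7 in the aneurysm library and 36.1 in the control library (-0.38 ± 0.29). Ucn, which encodes the CRH-related vasodilator urocortin, read 14.7 in the aneurysm library and 18.5 in the control library (-0.70 ± 0.57).

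The natriuretic peptide genes lay near the limit of measurement. Nppa, the atrial peptide, was flagged above background at 4 of 10 spots in the aneurysm library (14.2) and at 0 of 9 in the control library (9.60), which falls short of the rule that at least as many spots carry the flag as not. Nppb, the B-type peptide, was above background at 1 of 10 spots in the aneurysm library (4.37) and 0 of 7 in the control library (3.37). Nppc, the C-type peptide of endothelium, read 13.6 in the aneurysm library (1 of 2 spots above background) and 9.44 in the control library (0 of 2), with a bound of 0.16 that equals the measured difference and is an estimate with a spot error of 0.67. No difference in this group reached its 2-fold line, and most of these values are too dim to show one.

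Both arrays measured all 10 granule proteins and processing enzymes above background, and 0 of the 10 reached 2-fold. The granins were mostly lower. Vgf, the precursor of several neuroendocrine peptides, read 848 in the aneurysm library and 1080 in the control library (-0.72 ± 0.07). Chga, chromogranin A, read 188 in the aneurysm library and 217 in the control library (-0.58 ± 0.09), and Scg3, the secretogranin that tethers chromogranin A to granule membranes, read 173 in the aneurysm library and 197 in the control library (-0.55 ± 0.12). Scg2, the secretoneurin precursor, read 438 in the aneurysm library and 475 in the control library (-0.49 ± 0.07). Scg5, the 7B2 chaperone of the convertase PC2, was one of the brighter probes and close to equal, at 5702 in the aneurysm library and 5284 in the control library (-0.26 ± 0.06, and 0.05 with spike-in scaling). Chgb, chromogranin B, was the single granin above 0, at 1932 in the aneurysm library and 1343 in the control library (0.16 ± 0.06), and it stayed above 0, with Chga below 0, under the 10 alternatives.

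The processing enzymes were at or slightly above the median of all genes. Cpe, carboxypeptidase E, which also acts in cells outside the nervous system, read 6433 in the aneurysm library and 4094 in the control library (0.28 ± 0.06). Pam, the amidating enzyme, read 1772 in the aneurysm library and 1257 in the control library (0.13 ± 0.06). Pcsk2, the convertase PC2, read 62.6 in the aneurysm library and 39.5 in the control library (0.30 ± 0.26, but -0.08 with normexp). Pcsk1, the convertase PC1/3, read 19.8 in the aneurysm library and 16.3 in the control library (-0.09 ± 0.52), a value that its spot error covers and that was 0.21 with spike-in scaling. The 4 enzymes had a median of 0.21 and the 6 granule proteins a median of -0.52. The peptide groups had medians of -0.32 over 7 feeding and arousal peptides, -0.65 over 11 widespread neuropeptides and -0.13 over 4 cardiovascular or sensory peptides. With spike-in scaling these medians were, in the same order, 0.51, -0.21, -0.02, -0.35 and 0.17. The enzyme median was 0.03 with normexp, and the cardiovascular or sensory median was -0.38 over the 3 genes above background on both arrays. The median of the hypothalamic hormones was unstable for a further reason, since Trh entered through the control library alone and Crh and Kiss1 were left out as dim. It was -1.09 over 4 genes, -0.47 with normexp, -0.30 over the 3 genes above background on both arrays and 0.065 over 6 genes with no filter on dim probes.

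**Figure D3:**
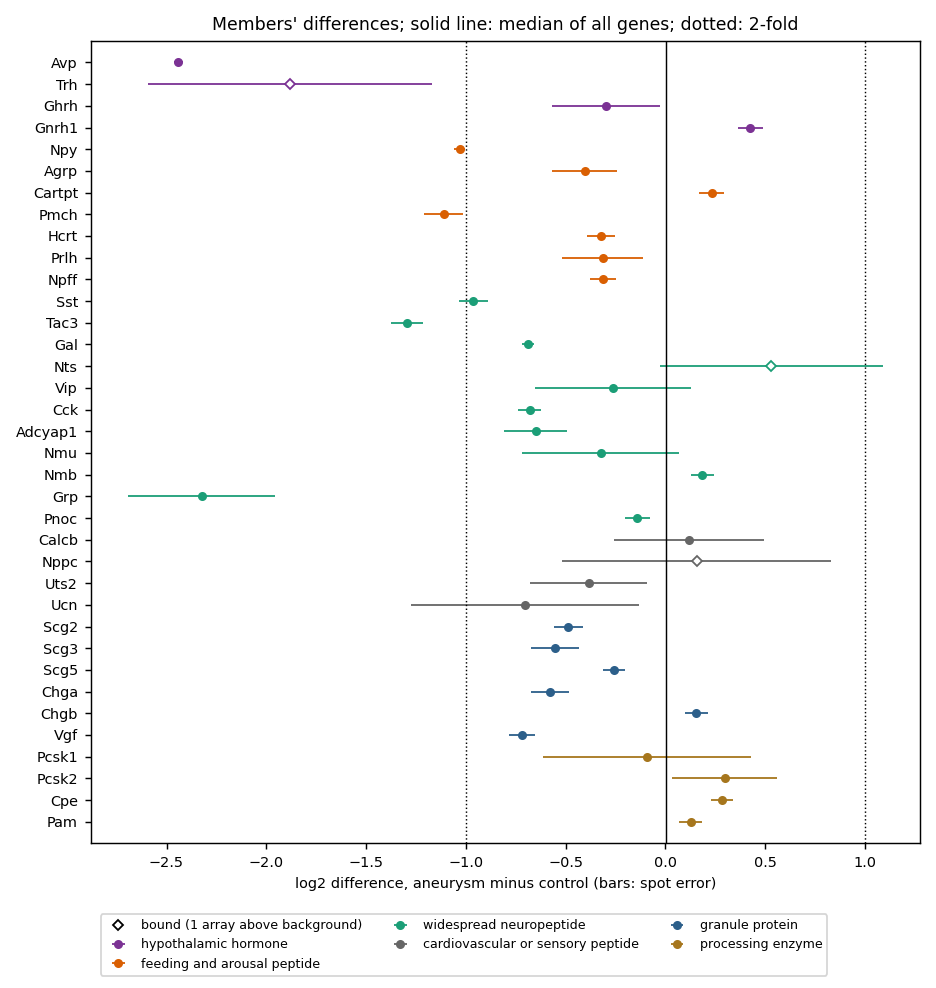
Log2 difference (aneurysm minus control) of the 36 genes well above background on at least 1 array, by role, with the spot error as a bar; diamonds are bounds, the solid line is the median of all genes (0.001) and dotted lines are 2-fold. Avp, Grp, Trh, Tac3, Pmch and Npy lie beyond the left dotted line, and the granule proteins and processing enzymes lie between -0.72 and 0.30.

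The promoters of these genes are shown because many neuropeptide and granin genes are known targets of the cAMP-responsive factor CREB. RefSeq promoter windows (build GRCr8, 250 bases before to 50 bases after the gene's start) were at hand for 32 of the 43 genes, not for Tac3 and Pmch. The windows, written 5′ to 3′ on the gene's own strand, are those of 4 genes at least 2-fold lower in the aneurysm library and of 3 that hold a whole cAMP response element (CRE). Capitals mark the CRE (TGACGTCA, which reads the same on both strands) and the TATA box letters (TATAAA, searched on both strands); no base outside them is in capitals.
Avp, chr3:138248473-138248772, minus strand: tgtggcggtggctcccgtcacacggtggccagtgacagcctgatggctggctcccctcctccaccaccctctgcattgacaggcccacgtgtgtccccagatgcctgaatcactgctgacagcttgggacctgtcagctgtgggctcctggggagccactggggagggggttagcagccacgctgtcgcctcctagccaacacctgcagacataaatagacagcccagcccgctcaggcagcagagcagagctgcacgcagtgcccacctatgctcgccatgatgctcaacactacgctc
Trh, chr4:126301713-126302012, minus strand: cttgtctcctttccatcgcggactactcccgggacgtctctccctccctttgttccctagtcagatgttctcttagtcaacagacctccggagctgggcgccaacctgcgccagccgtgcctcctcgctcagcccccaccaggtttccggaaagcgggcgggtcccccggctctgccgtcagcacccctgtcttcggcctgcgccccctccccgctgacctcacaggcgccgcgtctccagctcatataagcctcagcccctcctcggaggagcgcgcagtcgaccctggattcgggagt
Npy, chr4:80211861-80212160, plus strand: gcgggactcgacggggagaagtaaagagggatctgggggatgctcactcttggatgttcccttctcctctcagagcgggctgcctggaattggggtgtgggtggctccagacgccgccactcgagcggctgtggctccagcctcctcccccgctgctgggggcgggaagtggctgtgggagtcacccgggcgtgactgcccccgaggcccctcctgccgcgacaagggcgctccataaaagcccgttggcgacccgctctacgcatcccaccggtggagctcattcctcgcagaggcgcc
Grp, chr18:61658405-61658704, plus strand: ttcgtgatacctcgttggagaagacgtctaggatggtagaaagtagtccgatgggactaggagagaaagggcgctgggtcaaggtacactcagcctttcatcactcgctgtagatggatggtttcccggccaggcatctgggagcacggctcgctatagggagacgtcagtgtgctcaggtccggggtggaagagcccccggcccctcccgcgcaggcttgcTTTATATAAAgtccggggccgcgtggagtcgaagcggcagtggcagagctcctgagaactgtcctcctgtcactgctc
Sst, chr11:90461296-90461595, plus strand: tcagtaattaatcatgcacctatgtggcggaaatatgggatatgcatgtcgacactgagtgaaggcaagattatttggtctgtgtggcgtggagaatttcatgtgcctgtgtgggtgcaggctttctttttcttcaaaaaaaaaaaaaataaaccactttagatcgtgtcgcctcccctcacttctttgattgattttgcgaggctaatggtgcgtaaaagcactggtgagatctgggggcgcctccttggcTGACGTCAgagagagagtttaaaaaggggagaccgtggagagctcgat
Scg2, chr9:88256817-88257116, minus strand: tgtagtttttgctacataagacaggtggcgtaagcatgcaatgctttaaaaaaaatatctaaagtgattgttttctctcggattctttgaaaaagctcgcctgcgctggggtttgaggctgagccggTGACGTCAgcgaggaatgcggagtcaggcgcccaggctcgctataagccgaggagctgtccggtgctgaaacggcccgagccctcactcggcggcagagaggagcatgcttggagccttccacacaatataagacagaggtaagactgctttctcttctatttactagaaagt
Vgf, chr12:25276971-25277270, minus strand: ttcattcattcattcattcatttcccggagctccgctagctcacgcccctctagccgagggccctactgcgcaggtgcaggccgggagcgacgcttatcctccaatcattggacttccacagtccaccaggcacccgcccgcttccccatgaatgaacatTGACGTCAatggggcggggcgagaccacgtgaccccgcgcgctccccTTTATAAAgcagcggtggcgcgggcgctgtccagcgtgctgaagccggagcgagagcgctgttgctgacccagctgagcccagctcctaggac
The whole CRE was found in 5 of the 32 windows (15.6%), those of Cartpt, Scg2, Sst, Ucn and Vgf, against 1.83% of 33469 rat promoter windows of the same length. In Scg2 it began at position -123, in Vgf at -90 and in Sst at 3, counted from the annotated start as 1. Whether transcription begins at the annotated start was not tested, so the positions hold for that annotation only. The TATA box letters were in 11 of the 32 windows (34.4%, against 14.2% of all), among them Grp, where matches began at -28 and -24. A match is a description of these letters and not a bound site. The 5 genes with a CRE spread from -0.96 (Sst) through -0.72 (Vgf), -0.70 (Ucn) and -0.49 (Scg2) to 0.23 (Cartpt), and the windows of Avp, Trh, Npy and Grp held none.

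Other genes of the pathway were taken whole from lists by function, drawn up with earlier results of these data known. Over all genes, 3.91% were at least 2-fold lower and 0.882% at least 2-fold higher, and the counts of each list stand beside these shares. Of 20 other peptide precursors with a value, 2 were at least 2-fold lower and 2 at least 2-fold higher, with a median of -0.13. Pomc, the corticotropin and melanocortin precursor of pituitary and arcuate neurons, read 629 in the aneurysm library, against 3822 in the control library (-2.97 ± 0.06), and Kng1, the kininogen made by liver, read 19.0 in the aneurysm library and 50.03 in the control library (-1.77 ± 0.34). Tac1, the substance P precursor, went opposite to its relative Tac3, at 2004 in the aneurysm library and 517 in the control library (1.59 ± 0.07). Pthlh, which encodes the smooth muscle relaxant PTHrP, read 850 in the aneurysm library and 293 in the control library (1.17 ± 0.08).

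The granule machinery, the processing enzymes outside the set and the enzymes that break peptides down were read the same way. Of 13 genes of granule formation and release, 3 were at least 2-fold lower and 0 higher (median -0.56), Scgn among them through the control library alone. These were Scgn, the calcium sensor secretagogin (6.59 in the aneurysm library and 20.7 in the control library, log2 bound -1.96), Cadps, the granule priming factor CAPS (244 in the aneurysm library and 422 in the control library, -1.16 ± 0.09), and Resp18, a granule protein of endocrine cells (1858 in the aneurysm library and 3064 in the control library, -1.09 ± 0.06). Syt4, a granule synaptotagmin, was next at -0.76 ± 0.09. Of 11 other processing genes and of 11 peptide-degrading enzymes 0 reached 2-fold, with medians of -0.06 and 0.26. The widest values were those of the carboxypeptidase Cpd (0.57), the convertase Pcsk6 (0.50), Cpxm2 (0.46) and Pcsk4 (-0.38) in the processing list, and of the insulin-degrading enzyme Ide (0.51), Ece2 (0.42), Enpep (0.37) and Anpep (0.34) among the degrading enzymes.

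Of 38 peptide receptors with a value, 8 were at least 2-fold lower and 2 at least 2-fold higher (median -0.13). Over all genes the shares were 3.91% and 0.882%. Among the lower ones, Tacr3, Galr1, Galr3 and Calcr passed through the control library alone, so the filter bears on this count. Tacr3, the receptor of the Tac3 product, read 9.55 in the aneurysm library, where it was not well above background, and 35.8 in the control library (-2.27 ± 0.58, here the measured difference and an estimate, since the dim value lay above the lowest flagged level). Rxfp3, the relaxin-3 receptor, read 26.7 in the aneurysm library and 99.3 in the control library (-2.26 ± 0.27). Galr1 and Calcr, receptors of galanin and of calcitonin, were above background in the control library only, with bounds of -2.11 and -2.00. The receptors of the other genes beyond 2-fold were under that line or dim. Avpr1a, the vascular vasopressin receptor, was at -0.04 ± 0.12 and Avpr2, the renal one, at -0.25 ± 0.27. Npy1r, the vasoconstrictor receptor of NPY, was at 0.26 ± 0.12, Npy5r, above background in the aneurysm library alone, at 0.66 ± 0.63 and Mchr1, the receptor of melanin-concentrating hormone, was at -0.22 ± 0.39. Trhr, Npy2r and Grpr stayed near background on both arrays.

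**Figure D4:**
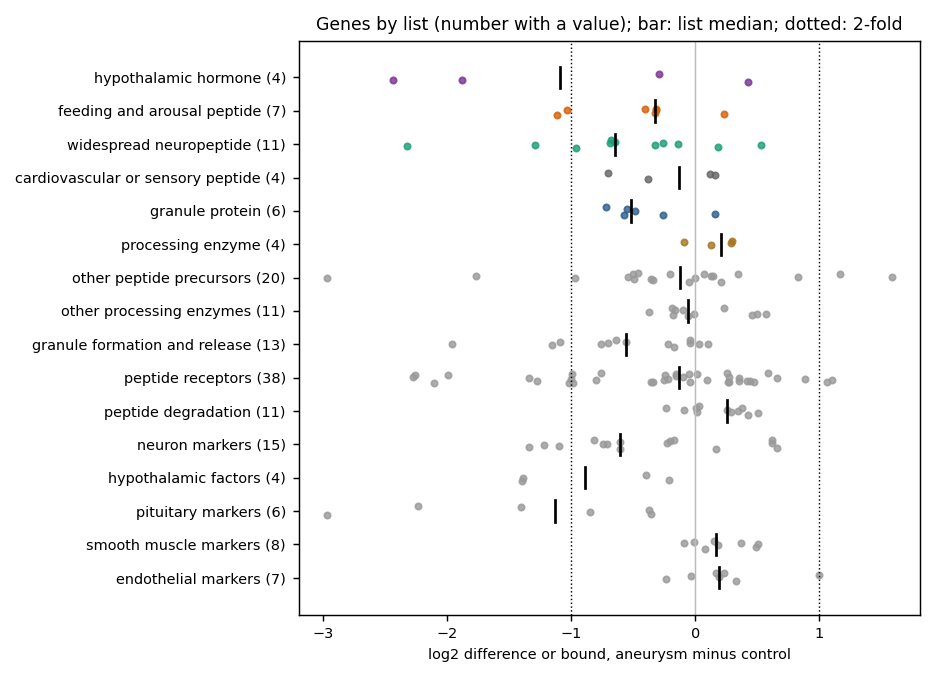
Log2 differences or bounds (aneurysm minus control) of single genes by list, with the number of genes that have a value in brackets, the list median as a bar and 2-fold as dotted lines. The bars of hypothalamic hormones (-1.09) and hypothalamic factors (-0.89) rest on 4 genes each, 1 and 2 of which passed the filter through the control library alone; pituitary and neuron markers have medians of -1.13 and -0.61, and smooth muscle and endothelial markers of 0.17 and 0.19.

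Pituitary markers and hypothalamic factors with a value lay below 0, and neuron markers lay on both sides of it. Of 12 transcription factors of hypothalamus, 4 were well above background on at least 1 array and 2 of these at least 2-fold lower, Nkx2-1 (19.5 in the aneurysm library and 39.9 in the control library, -1.40 ± 0.15) and Sim1 (log2 bound -1.39). Sim1 and Otp, at -0.21, passed through the control library alone, so the filter bears on this list too. The 4 factors' summed intensity was 51.2 in the aneurysm library and 80.3 in the control library. Neither array measured above background Six3, Six6, Rax, Lhx1, Hmx2, Hmx3, Nr5a1 and Fezf1. Of 6 pituitary genes with a value 3 were at least 2-fold lower, the median was -1.13, and the summed intensity was 1952 in the aneurysm library and 6407 in the control library; Prl and Pou1f1 were among those not well above background. Of 15 neuron genes 11 lay below 0 and 4 above it, 3 were at least 2-fold lower and 0 higher (median -0.61), and their unscaled summed intensity was 6586 in the aneurysm library and 6100 in the control library. Of 7 astrocyte genes 0 reached 2-fold (median -0.27), and their unscaled summed intensity was 34494 in the aneurysm library and 29728 in the control library. Of these sums, Slc1a3 alone held 18853.5 in the aneurysm library and 15571.7 in the control library. The part of these tissues in the differences of the peptide precursors was not tested.

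The 6 calls depended on the scaling to different degrees. With the scaling used counted as 1 setting, and leaving out the setting with no filter on dim probes, where all 6 were also at least 2-fold lower, Avp was at least 2-fold lower in 10 of 10 settings, Tac3 and Grp in 9 of 10, Trh in 8 of 9 that gave a value, Npy in 8 of 10 and Pmch in 7 of 10. None of the 6 changed sign in any of them.

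**Figure D5:**
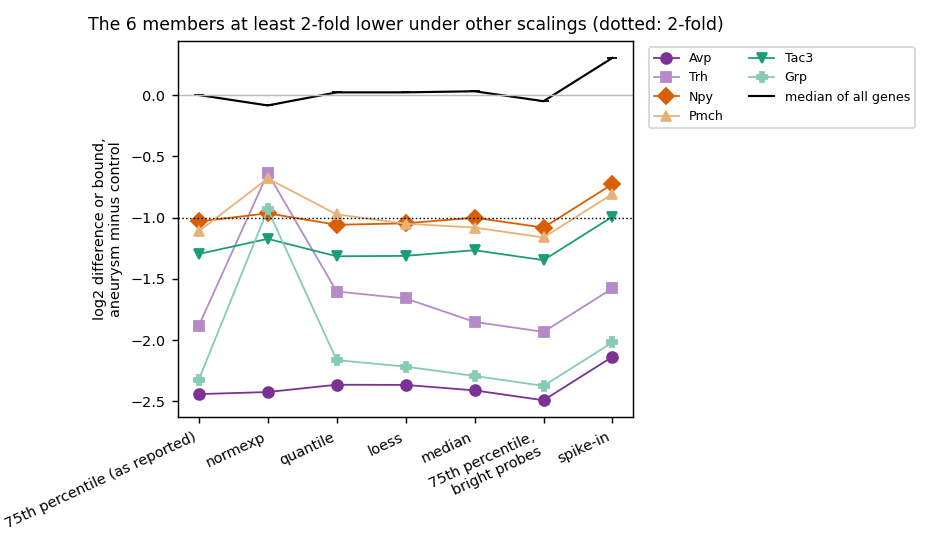
Log2 difference or bound (aneurysm minus control) of the 6 genes at least 2-fold lower, under the scaling used and 6 others, with the median of all genes as the black line and 2-fold as the dotted line. Avp stays between -2.49 and -2.14; Trh and Grp, which are dim, come to -0.64 and -0.93 with normexp, and spike-in scaling moves all genes up together.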

How the data were processed

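The processed intensity in the files the authors deposited was made by Agilent Feature Extraction 10.10.1.1 from the scanned image, on a linear scale after that software's background treatment, with no scaling between arrays, per the file headers. Flags for spots well above background, saturated or outlying, which the authors deposited beside it, are 0 or 1. Both arrays lay on 1 slide and share 1 scan time, per the file headers. RNA came from a fibrous tissue kit and was labelled with a low-input kit, per the labels' protocols.

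Here, log2 intensities were centred on the 75th percentile of 58717 gene spots of the same array. Outlier spots (573 in the aneurysm library, 484 in the control library) were dropped before repeat spots were averaged on the log scale. A probe passed when the spots flagged well above background were no fewer than the rest. Accessions without version matched 18006 of 30367 probes to 1 gene in a RefSeq table (GRCr8) and left 12361 unnamed; the array was designed on an older assembly, so no array coordinates are given. For genes with several probes the brightest that passed on either array was taken. A gene measured on 1 array received a bound against the higher of its own dim value and the lowest passing level there. Probes that did not pass can read above that level, so a bound is no strict limit. Differences of at least 2-fold were called. Every gene of the set is accounted for, and of each pathway list the 4 widest differences and the receptors of called genes are named. The code was tested on simulated arrays. Alternatives used normexp (limma 3.58.1, offset 50, on median signals, since the files hold no foreground mean), quantile, median, spike-in, loess and bright-probe scaling, other filters, probe averages and thresholds. Signal over background and 1 array per group limit the precision. The genes and lists were chosen with earlier results of these data known.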

Additional observations from a re-analysis of the deposited data

How the results depend on the processing

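No paired analysis was possible because each group has 1 array. Of 6 genes at least 2-fold lower in the aneurysm library, 2 remained so with normexp (Avp and Tac3) and 3 with spike-in scaling (Avp, Trh and Grp); at 1.5-fold there were 12, against 8.43% of all genes, and at 4-fold 2 (Avp and Grp), against 1.5% of all genes. With no filter on dim probes 1 gene, Nts, was at least 2-fold higher, at a measured 1.12. The precursor median of -0.35 was -0.050 with spike-in scaling. The median of -0.17 over granule proteins and processing enzymes was -0.31 with normexp, -0.083 with quantile normalization, -0.065 with loess centring and 0.13 with spike-in scaling. Offsets shrink dim differences and spike-in scaling shifts all genes alike, by construction. Of 355 values of single genes under the alternatives, 304 lay within the spot error of the value reported and 51 did not. Other filters, probe averages and kept outlier spots leave most genes as they are, so the 304 are no measure of stability under rescaling. Most of the 51 came from spike-in scaling and normexp. Of the called genes, 0 changed sign. Over all genes, 465 were at least 2-fold lower, but 193 with normexp, 237 with probes above background on both arrays and 758 with no filter. Genes higher by at least 2-fold numbered 105, but 14 with normexp, 51 with probes above background on both arrays, 165 with quantile or loess, 182 with no filter and 311 with spike-in scaling. Genes near background, such as Trh, Grp, Nts, Ucn and the natriuretic peptides, are limited by signal.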

Other observations

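Within the neuron markers the genes of transmitter type spread to both sides of 0. Slc17a6, the vesicular glutamate transporter of subcortical neurons, read 78.2 in the aneurysm library and 130.1 in the control library (-1.10 ± 0.07). Its cortical counterpart Slc17a7 read 14.8 in the aneurysm library and 7.12 in the control library, where it was not well above background (log2 bound 0.66, spot error 0.67). Slc32a1, the vesicular GABA transporter, read 1858 in the aneurysm library and 938 in the control library (0.62 ± 0.09, from 1 spot per array), and Gad2, a GABA-synthesising enzyme, read 169 in the aneurysm library and 84.9 in the control library (0.62 ± 0.16). Gad1, the other GABA-synthesising enzyme on the list, read 1000 in the aneurysm library and 690 in the control library (0.17 ± 0.07). Penk, the enkephalin precursor, is not a neuron marker here but one of the other peptide precursors. It read 605 in the aneurysm library and 264 in the control library (0.83 ± 0.04), while Pdyn of the same list was at -0.50 ± 0.09. Slc32a1, Gad2 and Penk were under 2-fold.

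Among markers of sensory and sympathetic neurons, Th, the catecholamine-synthesising enzyme, read 3531 in the aneurysm library and 3892 in the control library (-0.51 ± 0.06), while Dbh, a later enzyme on the way to noradrenaline, stayed near background on both arrays. Isl1, a transcription factor of sensory neurons, read 45.4 in the aneurysm library and 17.4 in the control library (1.01 ± 0.48), so its distance from the 2-fold line was within the spot error. Scn10a, a sodium channel of nociceptors, stayed near background on both arrays.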
